A study of Homo sapiens with 8 samples.

Results

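Mitosis is carried out by a set of proteins whose RNAs are mostly made in G2 and mitosis, and 47 genes of this set were examined in LNCaP cells treated with siRNA against GATA2. The genes were taken from a list of names and fall into 6 classes by the role of their products. There were 12 genes of the cyclins, mitotic kinases and chromosomal passenger complex, 10 of the spindle checkpoint and anaphase, 11 of the kinetochore and centromere, 6 of the spindle, 5 of the condensin complex and 3 of cytokinesis. Probes were assigned to a gene through their RefSeq accession. Of the 47 genes, 46 were matched to at least 1 probe and tested, among 28876 genes tested on the arrays. UBE2C was not analysed here. The 46 genes had 58 probes, each of which was well above background on all 8 arrays.

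LNCaP is a cell line derived from a lymph node metastasis of a human prostate cancer. The cells were transfected with siRNA at 30 nM, either against GATA2 (siGATA2) or a scrambled control (siControl), and their total RNA was hybridised 72 h later to 8 one-colour Agilent arrays, 4 per group. The study asked which genes are regulated downstream of GATA2, a zinc finger transcription factor expressed in prostate cells. The series calls the arrays of a group biological replicates, and nothing further ties them to separate transfections, so the spread between them may be partly technical. All signals are given as log2 of the processed signal after quantile normalization over the 8 arrays, and values of a group are listed in the order of arrays 1 to 4. Log2 fold changes are differences of group means, negative where the siGATA2 group was lower.

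Entry into mitosis is driven by CDK1 bound to A- and B-type cyclins, with the Polo and Aurora kinases acting beside it. Kinetochores, built on centromeres that carry CENP-A, attach chromosomes to spindle microtubules, and the spindle checkpoint holds back the anaphase-promoting complex until all are attached. Condensin compacts the chromosomes, and the central spindle and contractile ring then divide the cell. Many of these genes are transcribed together late in the cycle, from promoters that carry a cell cycle homology region (CHR), a site of MuvB complexes, and CCAAT boxes, the site of NF-Y.

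The promoter of 40 of the 46 genes was found in a RefSeq table of build GRCh38.p14, as a window of 250 bases before and 50 bases after the start of the gene. AURKA, BIRC5, BUB3, TTK, CENPM and TPX2 had no window there. For every gene only the first listed window was kept, which left out 9 further windows of the 40 genes. Both strands were searched and overlapping matches were counted. A CHR, searched as TTTGAA or TTCGAA, stood in 28 of the 40 windows (70%) and in 16.6% of all 27305 windows. CCAAT stood in 29 (72.5%) against 35.7% of all windows, and at least 2 copies in 20 (50%) against 11.3%. Both a CHR and a CCAAT were found in 21 (52.5%) against 6.58%. The E2F motif, searched as TTTCGCGC or TTTGGCGC, was found in 2 windows (5%) against 1.18% of all. A GATA motif, searched as AGATAA or TGATAA or AGATAG or TGATAG, stood in 8 (20%) against 25.5%. A match is a description of the letters and not of a bound site.

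The 200 bases before the start of 5 genes are shown, chosen after their values were seen. CDC20, DLGAP5 and HJURP carry both a CHR and CCAAT boxes, and NCAPG and NCAPH are the condensin members with the largest fall and with no fall. Sequences run 5′ to 3′ along the gene's own strand, from RefSeq, build GRCh38.p14. Capitals mark the motifs searched, as TTTGAA or TTCGAA (CHR), CCAAT and the GATA letters, with a match on the other strand appearing as its reverse complement (TTCAAA for a CHR and ATTGG for a CCAAT).
CDC20, chr1:43358781-43358980, plus strand: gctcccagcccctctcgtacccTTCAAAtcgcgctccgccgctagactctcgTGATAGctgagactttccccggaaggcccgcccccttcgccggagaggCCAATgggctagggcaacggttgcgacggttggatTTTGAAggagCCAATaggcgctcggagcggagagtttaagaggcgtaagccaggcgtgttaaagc
DLGAP5, chr14:55191586-55191785, minus strand: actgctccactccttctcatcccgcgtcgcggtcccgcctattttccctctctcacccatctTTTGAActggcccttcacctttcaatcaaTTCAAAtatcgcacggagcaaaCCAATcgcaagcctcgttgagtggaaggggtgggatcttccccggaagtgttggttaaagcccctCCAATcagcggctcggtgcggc
HJURP, chr2:233854536-233854735, minus strand: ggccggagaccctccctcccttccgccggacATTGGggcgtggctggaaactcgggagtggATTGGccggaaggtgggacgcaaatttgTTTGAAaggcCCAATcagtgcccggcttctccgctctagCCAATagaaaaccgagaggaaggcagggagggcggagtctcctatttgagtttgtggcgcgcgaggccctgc
NCAPG, chr4:17810779-17810978, plus strand: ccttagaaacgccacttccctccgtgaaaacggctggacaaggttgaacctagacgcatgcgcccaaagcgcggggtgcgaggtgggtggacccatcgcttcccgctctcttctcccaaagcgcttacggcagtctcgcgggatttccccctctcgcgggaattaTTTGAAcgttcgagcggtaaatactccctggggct
NCAPH, chr2:96335566-96335765, plus strand: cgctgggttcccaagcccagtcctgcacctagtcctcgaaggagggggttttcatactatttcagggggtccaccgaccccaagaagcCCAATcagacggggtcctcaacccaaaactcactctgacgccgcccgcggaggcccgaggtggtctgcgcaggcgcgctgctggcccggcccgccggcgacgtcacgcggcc
CDC20 and DLGAP5 each showed 2 CHR and 2 CCAAT matches in this stretch, and HJURP showed 1 CHR and 4 CCAAT matches. NCAPG held 1 CHR and no CCAAT, whereas NCAPH held no CHR and 1 CCAAT. CDC20 was the only one of the 5 with a GATA match here. Over the 40 genes the median log2 fold change was -2.01 with a CHR and -1.87 without, and -1.996 with a CCAAT and -1.991 without. It was -1.71 with a GATA match (8 genes) and -2.03 without, and -1.53 with an E2F match (2 genes) and -1.99 without.

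GATA2, the gene targeted by the siRNA, was measured first as a check of the labels, by a single tested probe. Its log2 signal was 12.61, 12.54, 11.57 and 11.40 on the arrays labelled siGATA2 and 11.74, 11.28, 11.09 and 11.29 on those labelled siControl. The groups overlapped, and the signal was not lower on the arrays labelled siGATA2 (12.03 ± 0.631 against 11.35 ± 0.275, SD, n = 4 each, log2 fold change 0.68, standard error 0.313, adjusted p = 0.155 in limma, two-sided exact permutation p = 0.143). GATA2 was called higher with arrays weighted by their quality (log2 fold change 0.80, adjusted p = 0.0312) and with groups of title letters as a block (0.47, adjusted p = 0.0264), while scaling to the E1A spike-in gave 0.031 (adjusted p = 0.986). In these files the signal of the target does not check the labels, and every direction below follows the labels as given.

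On the arrays themselves, siControl arrays 1 and 3 stood apart, with 28498 and 24319 probes well above background against 34020 to 36974 on the other 6. Their negative-control spots had an SD of 4.49 and 7.26 against 1.78 to 2.40, and the E1A spike-in signal of siControl array 1 was 11.13 against 13.45 to 13.83 on the other 7 (log2). All 7 luminal prostate markers given here, among them KLK3 and KLK2, were well above background on all arrays (11.22 to 17.23). Of 14 markers of other cell types 12 were tested, at 3.06 to 9.68. Probes with a mean log2 under 3 had been removed, so a marker near 0 would not be among those tested. COL1A1, PTPRC, VWF and CDH5, 4 of the 14, were well above background on all arrays. The summed level of the 4 leukocyte markers was 10.01 to 10.21 on siGATA2 and 8.91 to 9.26 on siControl arrays, that of the endothelial markers 9.60 to 9.98 and 10.16 to 10.46, that of the fibroblast markers 8.68 to 9.70 and 9.01 to 9.90, and that of the basal markers 4.32 to 4.96 and 4.63 to 6.54 (log2 of the sum). Their part in the results below was not tested.

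The mitotic genes were lower on the siGATA2 arrays almost without exception. Of the 46 genes tested, 44 were called lower (adjusted p under 0.05, limma over all genes) and 0 higher, against 14.1% of all genes called lower and 12.3% called higher. The fall was at least 2-fold for 42 of the 46, against 7.09% of all genes (4.51% were higher by at least 2-fold). The 2 genes not called were BUB3 and NCAPH, and the 2 called with a fall of less than 2-fold were CDK1 and SMC4. In 45 of the 46 genes all siGATA2 arrays lay below all siControl arrays, a separation found in 16.3% of all genes. The median log2 fold change was -1.99, against 0.09 over all genes, and the members ranged from -2.51 (NCAPG) to 0.09 (NCAPH). The largest fall was that of BIRC5 with 75th percentile or E1A scaling (-2.49 and -3.10, NCAPG -2.38 and -2.99), and that of HJURP (-2.40, NCAPG -1.97) with normexp, another background correction. In RNA from whole cultures, fewer cells in G2 or mitosis and less RNA per such cell cannot be told apart.

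**Figure D1:**
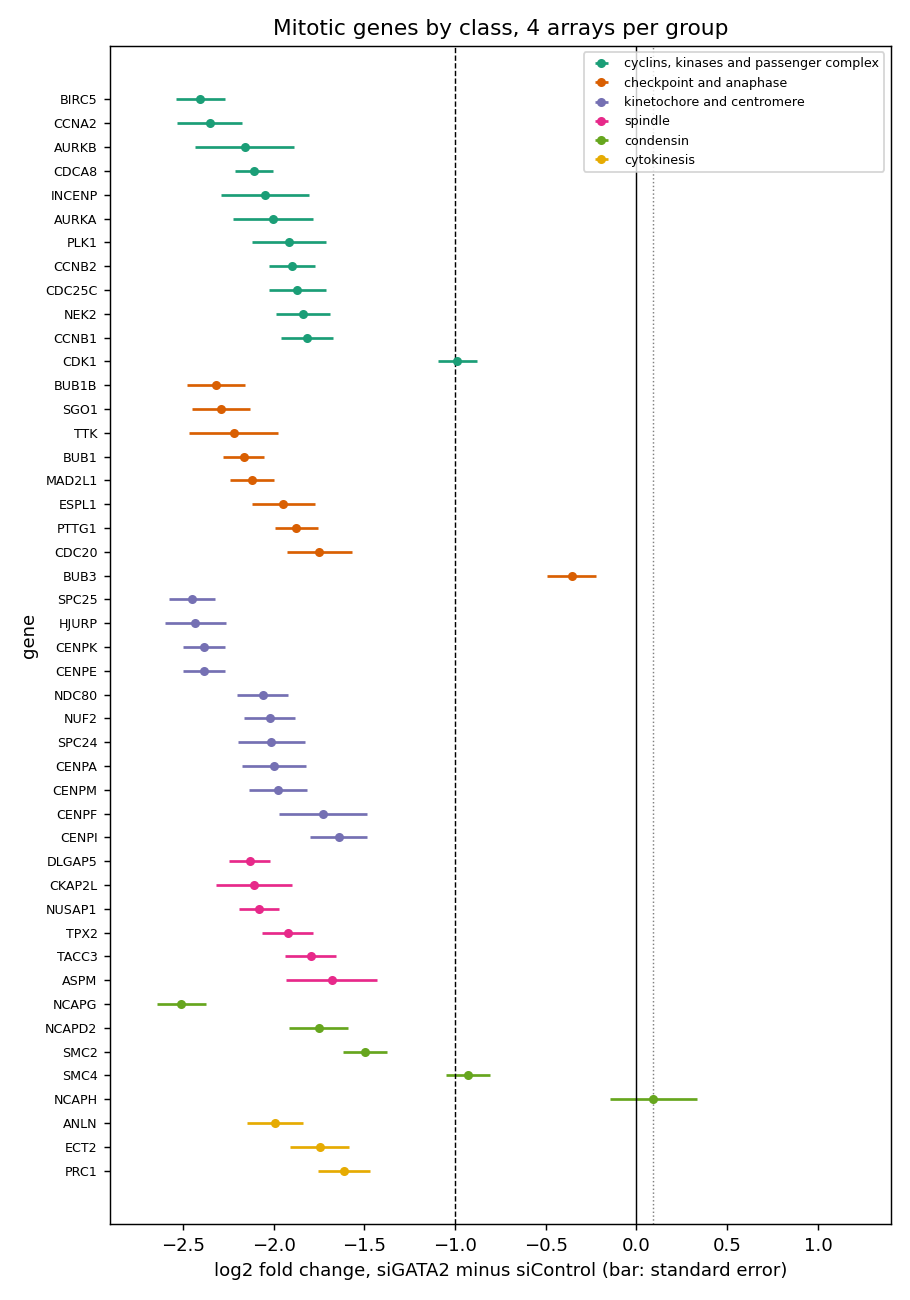
Log2 fold change (siGATA2 minus siControl, x axis) of the 46 mitotic genes (y axis), coloured by class, with bars for the standard error (n = 4 arrays per group), a dashed line at a 2-fold fall and a dotted line at the median of all genes, 0.09. BUB3 (-0.36) and NCAPH (0.09) stand apart from the rest, and CDK1 (-0.99) and SMC4 (-0.93) lie just short of the dashed line.

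The mean log2 signal over the 46 genes was 9.98, 9.70, 9.67 and 9.74 on the siGATA2 arrays and 11.50, 11.72, 11.74 and 11.71 on the siControl arrays. The groups were far apart beside their spread, yet array 1 of each group lay nearest to the other group. siControl array 1 was the lowest siControl array for 32 of the 46 genes (69.6%), against 40.2% of all genes. Likewise, siGATA2 array 1 was the highest siGATA2 array for 35 of 46 (76.1%), against 25.1% of all genes. The median over the members was -2.04 with siControl array 1 left out and -2.10 with siGATA2 array 1 left out. The arrays lay in 2 rows of 1 slide, row 1 holding siGATA2 arrays 1, 2 and 3 with siControl array 4, and row 2 the others. The median over the members was -1.98 within row 1 (45 of 46 genes below 0) and -1.99 within row 2 (46 of 46).

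**Figure D2:**
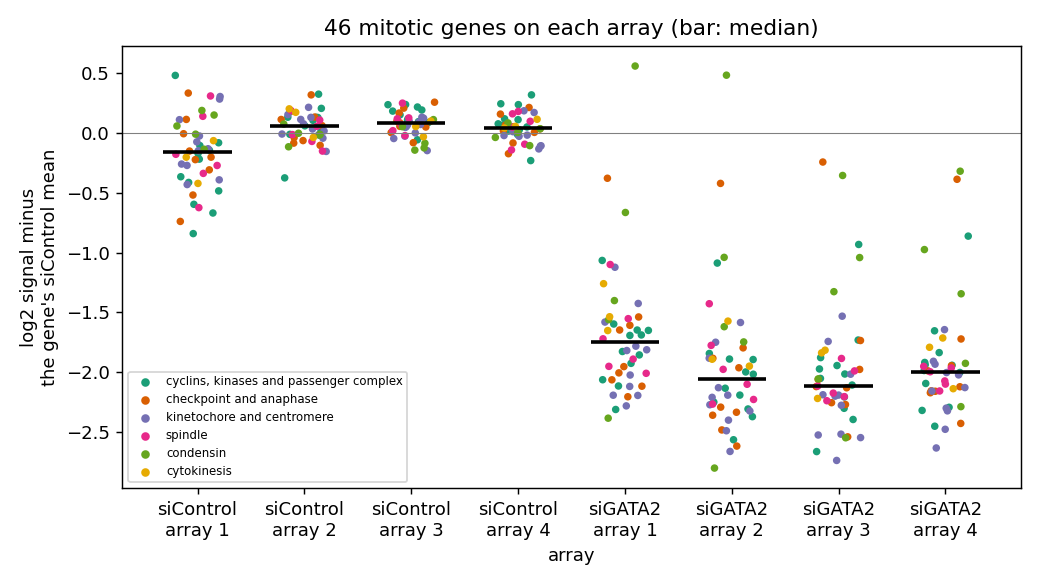
Log2 signal of each of the 46 genes minus its own siControl mean (y axis) on the 8 arrays (x axis), with points coloured by class and a bar at the median of each array. The siGATA2 arrays lie well below the siControl arrays, siControl array 1 has the widest spread of its group, and the condensin point above 0 on siGATA2 arrays 1 and 2 is NCAPH (7.70 and 7.63 against a siControl mean of 7.14).

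Among the cyclins, kinases and passenger proteins all 12 genes were called lower, 11 of them by at least 2-fold, with a median of -1.96. The largest fall was that of BIRC5, which encodes survivin, the subunit that brings the passenger complex to the centromere. Its log2 signal was 12.88, 12.62, 12.33 and 12.54 on siGATA2 and 14.89, 14.98, 15.09 and 15.01 on siControl arrays (log2 fold change -2.40, standard error 0.134, adjusted p = 2.41e-05). CCNA2, the cyclin A that serves S phase and mitotic entry, gave 8.62, 8.37, 8.73 and 8.61 against 10.45, 11.07, 11.17 and 11.05 (log2 fold change -2.35, standard error 0.178, adjusted p = 7.45e-05). AURKB, the kinase of the passenger complex, gave 8.41, 8.03, 8.04 and 8.24 against 9.50, 10.67, 10.53 and 10.66 (log2 fold change -2.16, standard error 0.272, adjusted p = 0.000806). The siControl value of AURKB on array 1 was over 1 log2 unit below the other 3, and the groups did not overlap for any of these 3 genes.

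INCENP, the scaffold on which AURKB and BIRC5 assemble, had log2 signals of 8.65, 8.45, 7.90 and 8.00 on siGATA2 and 10.78, 9.92, 10.41 and 10.06 on siControl arrays (log2 fold change -2.05, adjusted p = 0.000606). CDCA8, or borealin, the remaining passenger subunit, fell by 2.11 on the log2 scale. All 4 subunits of the passenger complex were thus lower, between -2.05 and -2.40. For INCENP siControl array 1 was the highest of its group, the opposite of AURKB.

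The mitotic cyclins that activate CDK1 fell to a like extent. CCNB1 gave 12.52, 12.28, 12.29 and 12.34 against 13.81, 14.31, 14.33 and 14.25 (log2 fold change -1.81) and CCNB2 gave 12.61, 12.19, 12.16 and 12.29 against 14.13, 14.19, 14.32 and 14.20 (log2 fold change -1.90). CDK1 itself, the kinase subunit, changed less, with a fall of 0.99 on the log2 scale (standard error 0.107, adjusted p = 0.000376). AURKA, the centrosomal Aurora kinase, gave 10.43, 10.10, 10.27 and 10.35 against 11.62, 12.48, 12.53 and 12.53 (log2 fold change -2.001, adjusted p = 0.000415). PLK1, the Polo kinase, CDC25C, the phosphatase that activates CDK1, and NEK2, a kinase of centrosome separation, had log2 fold changes of -1.91, -1.87 and -1.84, with adjusted p of 0.000347, 0.000111 and 9.31e-05.

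In the checkpoint and anaphase class 8 of 9 genes tested were called lower, all 8 by at least 2-fold, and the class median was -2.12. BUB1B, or BubR1, a subunit of the mitotic checkpoint complex, fell furthest, from 12.06, 12.20, 12.47 and 12.31 on siControl to 10.30, 9.92, 9.71 and 9.83 on siGATA2 arrays (log2 fold change -2.32, standard error 0.158, adjusted p = 4.66e-05). SGO1, or shugoshin, which protects centromeric cohesion, had log2 signals of 7.23, 6.73, 7.09 and 7.19 against 9.04, 9.53, 9.40 and 9.41 (log2 fold change -2.29, standard error 0.159, adjusted p = 5.09e-05). TTK, the checkpoint kinase also called MPS1, gave 8.04, 7.76, 8.18 and 8.12 against 9.50, 10.56, 10.50 and 10.40 (log2 fold change -2.22, standard error 0.247, adjusted p = 0.000428). None of the 3 overlapped between groups, and siControl array 1 was the lowest of its group for each.

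BUB1, a kinase that recruits other checkpoint proteins, gave 8.92, 8.57, 8.80 and 8.77 against 10.78, 10.99, 10.98 and 10.97 (log2 fold change -2.17, adjusted p = 2.13e-05). MAD2L1, the checkpoint protein that binds CDC20, fell by 2.12 on the log2 scale, and CDC20, the activator of the anaphase-promoting complex, fell by 1.75. ESPL1, or separase, the protease that cleaves cohesin, and PTTG1, or securin, its inhibitor, had log2 fold changes of -1.95 and -1.87. Adjusted p-values of these 4 lay between 2.52e-05 and 0.000276.

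BUB3, the WD40 protein that binds BUB1 and BUB1B, was the exception of the class. Its log2 signal was 12.55, 12.51, 12.69 and 12.54 on siGATA2 and 13.26, 12.84, 12.85 and 12.76 on siControl arrays. The groups did not overlap, but the difference was small (log2 fold change -0.36, standard error 0.134) and missed the threshold (adjusted p = 0.09). A second BUB3 probe, designed on another transcript, had a log2 fold change of -0.83 (adjusted p = 0.0282 over 35546 probes). With the mean of both probes BUB3 was called lower (log2 fold change -0.59, adjusted p = 0.00662), so the call depends on the probe while the direction did not.

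All 11 kinetochore and centromere genes were called lower by at least 2-fold, with a median of -2.02. SPC25, a subunit of the NDC80 complex that binds microtubules, had log2 signals of 9.41, 9.03, 9.15 and 9.39 on siGATA2 and 11.55, 11.73, 11.83 and 11.68 on siControl arrays (log2 fold change -2.45, standard error 0.127, adjusted p = 2.06e-05). HJURP, the chaperone that deposits CENP-A at centromeres, gave 10.82, 10.52, 10.10 and 10.21 against 12.95, 12.86, 12.82 and 12.74 (log2 fold change -2.43, standard error 0.168, adjusted p = 4.91e-05). CENPK, of the inner kinetochore network, gave 8.16, 7.86, 7.83 and 8.02 against 10.22, 10.43, 10.42 and 10.33 (log2 fold change -2.38, standard error 0.114, adjusted p = 1.72e-05). These 3 genes showed no overlap between groups, and siGATA2 array 1 was the highest of its group for each.

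The 4 subunits of the NDC80 complex fell together. NDC80 gave 11.29, 10.89, 10.91 and 11.08 against 12.83, 13.22, 13.20 and 13.16 (log2 fold change -2.06, adjusted p = 4.61e-05), and NUF2, its coiled-coil partner, fell by 2.02 on the log2 scale. SPC24 gave 6.63, 6.63, 7.30 and 6.70 against 9.11, 8.82, 8.68 and 8.70 (log2 fold change -2.01, adjusted p = 0.000172), with siGATA2 array 3 above the other 3 of its group. CENPE, a kinetochore motor, CENPA, the centromeric histone, and CENPM, of the inner kinetochore, had log2 fold changes of -2.38, -1.996 and -1.98. The smallest changes of the class were those of CENPF (-1.73), a large protein of the outer kinetochore, and CENPI (-1.64, or -1.02 with normexp), of the inner kinetochore.

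The 6 spindle genes were all called lower by at least 2-fold, with a median of -2.002. DLGAP5, or HURP, which stabilises kinetochore fibres, gave 10.06, 9.74, 9.80 and 9.91 on siGATA2 and 11.83, 12.07, 12.08 and 12.06 on siControl arrays (log2 fold change -2.13, standard error 0.114, adjusted p = 2.2e-05). CKAP2L, a spindle-associated protein, gave 7.69, 7.47, 7.46 and 7.74 against 9.07, 9.89, 9.95 and 9.88 (log2 fold change -2.11, standard error 0.21, adjusted p = 0.000251). NUSAP1, a microtubule-bundling protein, gave 10.80, 10.59, 10.52 and 10.54 against 12.84, 12.63, 12.72 and 12.60 (log2 fold change -2.08, standard error 0.11, adjusted p = 2.15e-05). Groups did not overlap for these 3, and for CKAP2L siControl array 1 lay below the other 3 of its group. TPX2, the activator of AURKA, TACC3, a spindle microtubule protein, and ASPM, a protein of the spindle poles, had log2 fold changes of -1.92, -1.80 and -1.68.

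The 3 cytokinesis genes were called lower by at least 2-fold, with a median of -1.75. ANLN, or anillin, a scaffold of the contractile ring, gave 8.81, 8.51, 8.24 and 8.32 against 10.26, 10.64, 10.43 and 10.52 (log2 fold change -1.99, standard error 0.154, adjusted p = 8.17e-05). ECT2, the exchange factor that activates RhoA at the division plane, gave 9.33, 8.97, 9.03 and 9.15 against 10.45, 11.07, 10.97 and 10.98 (log2 fold change -1.75, standard error 0.164, adjusted p = 0.000191). PRC1, which bundles microtubules of the central spindle, gave 12.46, 12.14, 11.90 and 11.92 against 13.65, 13.68, 13.77 and 13.76 (log2 fold change -1.61, standard error 0.142, adjusted p = 0.000143). No siGATA2 array reached the lowest siControl array for any of the 3.

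The condensin class was the most uneven of the 6. Of its 5 subunits 4 were called lower, 3 by at least 2-fold, with a median of -1.50 and a range from -2.51 to 0.09. NCAPG, a HEAT-repeat subunit of condensin I, whose promoter with its CHR is shown above, had log2 signals of 6.96, 6.55, 6.80 and 7.06 on siGATA2 and 9.22, 9.34, 9.46 and 9.39 on siControl arrays (log2 fold change -2.51, standard error 0.136, adjusted p = 2.3e-05). NCAPD2, the other HEAT-repeat subunit of condensin I, gave 12.50, 12.28, 11.85 and 11.98 against 14.09, 13.90, 13.82 and 13.80 (log2 fold change -1.75, standard error 0.165, adjusted p = 0.000189). SMC2, an ATPase subunit that condensin I and II share, gave 8.79, 8.60, 9.02 and 9.01 against 10.34, 10.34, 10.40 and 10.31 (log2 fold change -1.50, standard error 0.121, adjusted p = 9.79e-05). SMC4, its ATPase partner, fell by 0.93 on the log2 scale (standard error 0.122, adjusted p = 0.000977).

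NCAPH, the kleisin that closes the condensin I ring, was the only member whose groups overlapped. It was also the member with the lowest mean siControl signal (7.14), measured by a single probe. Its log2 signal was 7.70, 7.63, 6.79 and 6.82 on siGATA2 and 7.29, 7.03, 7.02 and 7.23 on siControl arrays (log2 fold change 0.09, standard error 0.241, adjusted p = 0.803). The siGATA2 arrays fell into a higher pair, arrays 1 and 2, and a lower pair, arrays 3 and 4, on either side of all siControl arrays. Arrays 1 and 2 carry the title letters A and B, and arrays 3 and 4 the letters E and F. The mean of A and B was 0.86 above that of E and F for NCAPH, the widest such gap among the members, and 1.09 above for GATA2. Of the 46 members, 17 (37%) had both A and B arrays above both E and F arrays, against 33.3% of all genes. In the other direction, 5 of the 46 members had both A and B arrays below both E and F arrays. That share is well below the one over all genes, where 13268 of 28876 did so. Together with the 9620 genes split the first way, most genes separated A and B from E and F. The split by letter was thus not particular to NCAPH or GATA2. Standard errors and p-values count the siGATA2 arrays as independent, although most genes split them into these pairs. With the letters as a block the log2 fold change of NCAPH was -0.051 (adjusted p = 0.797), and it turned below 0 as well with E1A scaling (-0.34), with slide row as a block (-0.072) and without siGATA2 array 1 (-0.063) or 2 (-0.037).

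**Figure D3:**
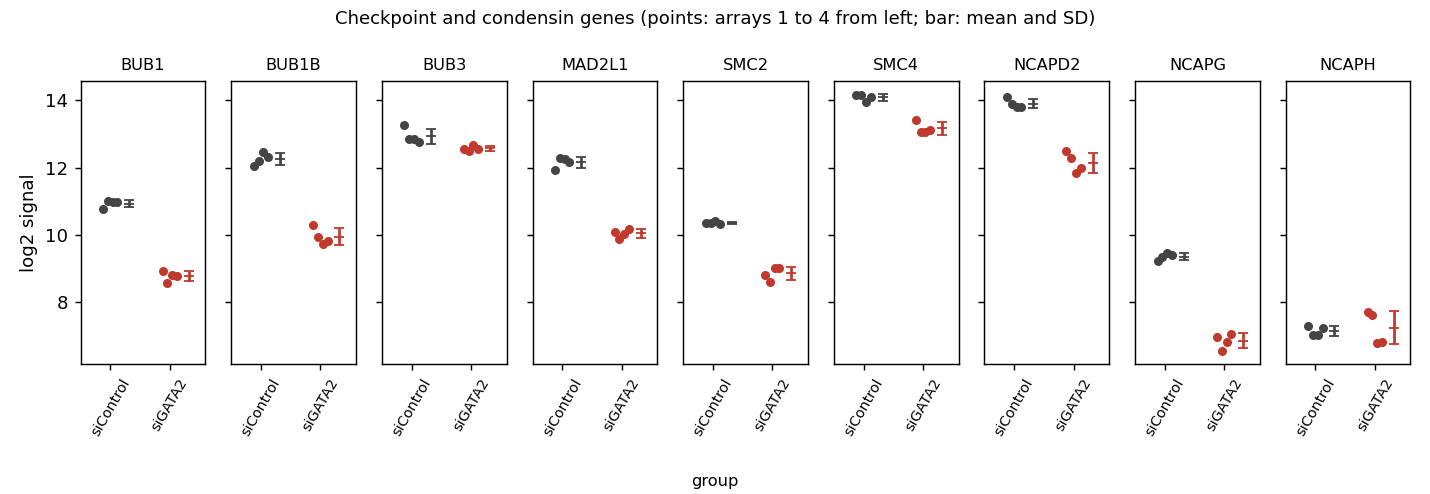
Log2 signal (y axis) of 4 checkpoint and 5 condensin genes in the siControl and siGATA2 groups (x axis), with points for arrays 1 to 4 from the left and bars for the mean and SD (n = 4). NCAPH is the only subunit whose siGATA2 arrays (6.79 to 7.70) span its siControl arrays (7.02 to 7.29).

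A second probe was present for 12 of the 46 genes and was called lower for all 12, with log2 fold changes from -2.10 to -0.83. Both probes were called lower for 11 of the 12, BUB3 being the exception, and the widest gap between the probes of a gene was 0.48. The remaining 34 genes, NCAPH among them, rest on a single probe. Across the members the log2 fold change and the mean siControl signal, which ran from 7.14 to 15.29, had a Pearson's r of -0.01 and a Spearman's rho of 0.18, described across 46 genes that share the 8 arrays.

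Partners within a complex, or close relatives, were compared in 6 pairs by the difference of their log2 signals within each array, with two-sided exact permutation tests over the 8 arrays. The smallest p that 4 against 4 arrays allow is 0.0286. The log2 fold change of BUB3 was 1.81 above that of BUB1 (95% interval 1.38 to 2.24, exact p = 0.0286, 0.0857 after adjustment over the 6 pairs). That of NCAPD2 was 0.76 above that of NCAPG (0.20 to 1.31, exact p = 0.0286, adjusted 0.0857). Both pairs reached the smallest p possible, but neither passed 0.05 after adjustment. With 6 pairs, this p in only these pairs could not pass 0.05, so the adjusted p decides nothing about either. With normexp the differences were 1.58 (adjusted p = 0.171) and 0.27 (adjusted p = 0.386, exact permutation test), and with 75th percentile or E1A scaling that of NCAPD2 and NCAPG was 0.56. Both scalings shift a whole array by a constant, which cancels in a difference within an array. For pairs they are therefore the same setting.

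The other 4 differences were smaller with quantile normalization. INCENP was 0.36 above BIRC5 (95% interval -0.20 to 0.92, exact p = 0.171, adjusted 0.257), and AURKB and AURKA differed by -0.16 (interval -0.36 to 0.05, exact p = 0.143, adjusted 0.257). CCNB2 and CCNB1 differed by -0.08 (-0.35 to 0.18, exact p = 0.571, adjusted 0.686), and SPC24 and NDC80 by 0.05 (-0.66 to 0.76, exact p = 0.8, adjusted 0.8). All 4 intervals included 0, and that of SPC24 and NDC80 was the widest. With normexp INCENP minus BIRC5 was 0.58 and SPC24 minus NDC80 0.50, both above NCAPD2 minus NCAPG, and SPC24 minus NDC80 was 0.25 with 75th percentile or E1A scaling. The sign of the difference turned for CCNB2 and CCNB1 without siControl array 1 (0.012), and for SPC24 and NDC80 without siGATA2 array 3 (-0.15) or siControl array 3 (-0.021) or 4 (-0.0064).

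Other genes of the same machinery were read from 8 lists. Of 20 further regulators of CDK1 and the mitotic kinases, 13 were called lower (65%), 12 by at least 2-fold, and 2 higher (10%), with a median of -1.29. Among all genes 14.1% were called lower and 12.3% higher. HASPIN, the histone H3 kinase that helps to place the passenger complex, and PBK, a mitotic kinase, fell most (-2.56 and -2.22). With normexp HASPIN was at -1.81 and fell less than PBK (-2.17), PKMYT1 (-2.03) and GTSE1 (-1.89). ARPP19, an inhibitor of the phosphatase PP2A-B55, and NEK9, a kinase of spindle assembly, rose by 0.74 and 0.46 on the log2 scale. Of 29 other kinetochore and centromere genes 22 were called lower (75.9%), 19 by at least 2-fold, and 0 higher, with a median of -1.46. The largest falls were those of SKA1 (-3.18, standard error 0.512) and SKA3 (-2.63, standard error 0.149), subunits of the complex that couples kinetochores to shrinking microtubules. With normexp SKA1 was at -1.84, behind SKA3 (-2.31), CENPW (-2.16) and ZWINT (-2.02).

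The 16 subunits and ubiquitin enzymes of the anaphase-promoting complex had 3 genes called lower, 1 of them by at least 2-fold, 2 higher and 11 neither, with a median of 0.16. These are shares of 18.8% and 12.5%, near the 14.1% and 12.3% of all genes. ANAPC5, a scaffold subunit, and UBE2S, the enzyme that extends ubiquitin chains, had log2 fold changes of -1.103 and -0.95, while FZR1, the CDH1 activator used late in mitosis and in G1, and ANAPC16, a small subunit, rose by 0.96 and 0.93. FZR1 thus moved opposite to CDC20, the activator used earlier, with log2 signals of 12.17, 12.21, 12.64 and 12.66 on siGATA2 and 11.34, 11.54, 11.44 and 11.52 on siControl arrays.

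All 3 subunits particular to condensin II were called lower, against 14.1% of all genes, and 2 of them by at least 2-fold. The median was -1.12 (NCAPD3 -1.28, NCAPG2 -1.12 and NCAPH2 -0.91). NCAPH2, the kleisin of condensin II, was called lower, but not with E1A scaling (-1.58, adjusted p = 0.0731), and it was not tested against NCAPH of condensin I. Of 14 genes of cohesin and its regulators 5 were called lower (35.7%) and 2 higher (14.3%, near the 12.3% of all genes). Their median was -0.08. CDCA5, or sororin, and ESCO2, an acetyltransferase, which act on cohesin in S phase, fell most (-2.49 and -2.36), and the loader NIPBL and the core subunit STAG2 rose by 1.04 and 0.53.

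Among 12 other cytokinesis genes 5 were called lower (41.7%, against 14.1% of all genes) and 1 higher (8.33%, against 12.3%), with a median of 0.05. CEP55, the midbody protein that recruits ESCRT, and RACGAP1, a subunit of centralspindlin, had log2 fold changes of -2.35 and -2.09, and TSG101, an ESCRT-I subunit, rose by 0.67. Of 14 tested genes of gamma-tubulin and augmin complexes 6 were called lower (42.9%), 4 of them by at least 2-fold, and 0 higher (median -0.42). The largest falls were those of the augmin subunits HAUS8 (-1.596) and HAUS6 (-1.08). Of the 5 genes of the MuvB core, the complex that reads the CHR, LIN9 and RBBP4 were called lower (-1.71 and -1.199) and LIN37 higher (0.66). These are shares of 40% and 20%, on only 5 genes. With the mean over the probes of a gene LIN9 was at -0.94 and RBBP4 at -0.99, both still called. Of the 59 genes called lower in the 8 lists all stayed below 0 under the scalings to the 75th percentile and to the E1A spike-in, but 14 lost their call with the latter and 1, ARHGEF2, with the former (adjusted p = 0.133). The 8 called higher all lost that call with E1A scaling, where NEK9 (-0.24), STAG2 (-0.13) and TSG101 (-0.012) turned below 0, and ARPP19, STAG2 and TSG101 lost it with 75th percentile scaling (adjusted p = 0.12, 0.0957 and 0.123). The part of the low E1A signal of siControl array 1 in the changes under E1A scaling was not tested.

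**Figure D4:**
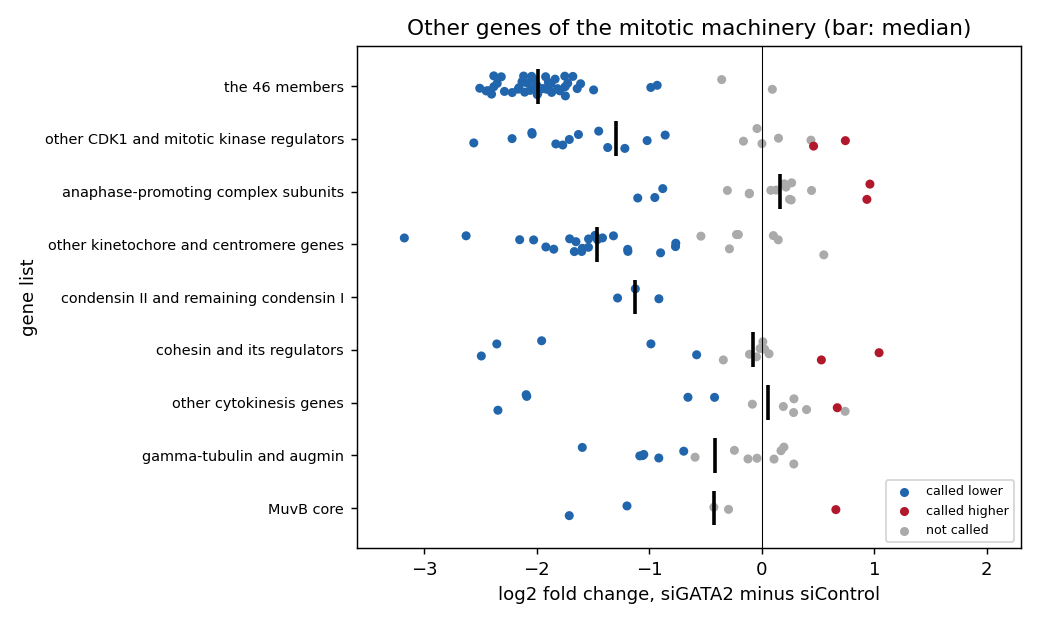
Log2 fold change (siGATA2 minus siControl, x axis) of the genes of 8 lists and of the 46 members (y axis), coloured by call at an adjusted p of 0.05, with a bar at each median. The medians run from -1.99 for the members through -1.46 for other kinetochore genes to 0.16 for the anaphase-promoting complex.

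The counts over the members held under the scalings, filters and tests tried, with 41 to 45 genes called lower and 0 higher throughout, where 41 is the count at a fold of at least 3. Scaling to the E1A spike-in moved the median of all genes to -0.43 and that of the members to -2.58. The E1A signal of siControl array 1 was 11.13, against 13.45 to 13.83 on the other arrays (log2). With this scaling the standard error of BIRC5 was 0.475, against 0.134 as reported. The part of siControl array 1 in these shifts was not tested. Scaling to the 75th percentile moved the median of all genes to 0.17. No member other than NCAPH changed direction under any of the alternatives run.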

How the data were processed

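Total RNA of LNCaP cells was measured on 8 one-colour arrays. The labels gave each array's group and replicate number. Spot intensity values were deposited by the authors as produced by Agilent Feature Extraction 11.0.1.1 (named in the submitters' processing notes), of which the processed signal, already corrected for background, was used, and a matrix of log2 values, which served as an alternative. The design named in the array headers differs from the one in the methods. Log2 scale and quantile normalization follow the methods.

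Spots marked as outliers were left out, spots of a probe averaged, and the arrays quantile-normalized. Of 42405 non-control probes, 1914 without annotation and those with a mean log2 under 3 were removed, which left 35546. Of the non-control probes 26364 were named by accession through a RefSeq table of GRCh38.p14. The brightest probe stood for a gene, which gave 28876 genes, 17874 with a symbol. Groups were compared with lmFit and eBayes of limma 3.58.1 in R 4.3.3, adjusted by Benjamini-Hochberg over all genes and called at 0.05, where the methods name a t-test. limma was checked on simulated data with independent noise on each array. The split of the siGATA2 arrays by title letter was not simulated.

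Values on every array are given for GATA2, the 3 members of each class with the largest change among those called, the 12 genes of the 6 pairs, and members not called, called higher, overlapping between groups or dim. For the other lists the 2 largest falls and rises among called genes are named. The members, lists and pairs were chosen with earlier results of these data known. Intervals of pair differences are at 95%. Arrays have no read depth, and the number of arrays limits the precision.

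The alternatives comprised 75th percentile scaling, E1A scaling over 7 probes, normexp with an offset of 50 on the median signal, the deposited log2 matrix, other filters on dim probes, the mean over probes, array weights, siControl arrays 2 and 4 only, blocks by replicate number, slide row and groups of title letters (the last chosen after seeing the data), an intensity trend, the methods' t-test, other fold thresholds, and leaving out each array. One luminal marker is not reported here. UBE2C and, of the lists, HAUS7 were not analysed here, nor were the study's other experiments.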

Additional observations from a re-analysis of the deposited data

Results flagged for a closer look

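Within the 4 arrays of a group, 22 values lay far from the other 3 by Dixon's criterion, among 108 groups of values examined. Chance alone marks about 1 in 20 where groups of values are independent. These groups are not, since the genes share the same arrays and the class and overall means are computed from the members. A single displaced array can thus be counted many times, so the count of 22 cannot be judged against that rate. Of the 22, siControl array 1 was the lowest of its group in 17. These were the log2 signals of CDK1 (14.07), CCNB1 (13.81), CDC25C (9.80), PLK1 (10.18), AURKA (11.62), AURKB (9.50), BUB1 (10.78), TTK (9.50), CDC20 (11.78), CENPA (10.27), NDC80 (12.83), TPX2 (11.97), DLGAP5 (11.83), CKAP2L (9.07) and ECT2 (10.45), and the mean over the class of cyclins, kinases and passenger proteins (11.80) and over all members (11.50). All of these genes were called lower on the siGATA2 arrays with siControl array 1 left out as well. siControl array 1 also had the low E1A signal and fewer probes above background than 6 of the other arrays, and the part of these in the values was not tested.

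The remaining values were high. siGATA2 array 1 was the highest of its group for PLK1 (9.08), PTTG1 (13.68) and TPX2 (10.59), siControl array 3 for CENPM (14.47), and siGATA2 array 3 for SPC24 (7.30).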

How the results depend on the processing

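Members called lower numbered 41 (fold of at least 3) to 45 over all alternatives, and 0 were called higher in each. Of 1012 values of single members under an alternative, 1003 kept their direction and call. With the replicate block, the filters on dim probes, the intensity trend and the methods' t-test the log2 fold changes were those reported. Only the call could change there, and the members share the same arrays, so these values are not separate checks. NCAPH turned below 0 with E1A scaling (-0.34), slide row as a block (-0.072), the title-letter block (-0.051) and without siGATA2 array 1 (-0.063) or 2 (-0.037), and ran from -0.063 to 0.24 with 1 array left out. SMC4 lost its call with E1A scaling (-1.63, adjusted p = 0.0525 in limma). BUB3 was called lower with normexp (-0.39), the mean over probes (-0.59) and the title-letter block (-0.39). With E1A scaling the medians were -2.58 for cyclins, kinases and passenger genes, -2.72 for checkpoint, -2.66 for kinetochore, -2.59 for spindle, -2.03 for condensin, -2.33 for cytokinesis and -2.58 over all members. With normexp, whose offset shrinks folds of dim probes, they were -1.86 for checkpoint, -1.82 for spindle, -1.34 for condensin and -1.82 over all members. The kinetochore median was -2.16 with siControl arrays 2 and 4 only, and -2.15 to -1.9998 with 1 array left out. Genes lower by at least 2-fold in the anaphase-promoting complex list (1 as reported) were 2 with 75th percentile or E1A scaling, 0 with siControl arrays 2 and 4 only, and 0 to 1 with 1 array left out (0 without siGATA2 array 3 or 4). In the gamma-tubulin list (4 as reported) they were 2 with siControl arrays 2 and 4 only, slide row as a block or the methods' t-test, and 2 to 3 with 1 array left out (2 without siGATA2 array 3 or 4 or siControl array 2, 3 or 4). Condensin II genes lower by at least 2-fold were 1 with normexp, and MuvB genes 0 with the mean over probes. AURKB minus AURKA turned to 0.025 with normexp, and CCNB2 minus CCNB1 to 0.038 with siControl arrays 2 and 4 only. With 1 array left out CCNB2 minus CCNB1 ran from -0.13 to 0.012 and SPC24 minus NDC80 from -0.15 to 0.22. NCAPD2 minus NCAPG (0.76 as reported) was 0.27 with normexp and 0.56 with 75th percentile or E1A scaling. GATA2 was called higher with array weights (0.80) and the title-letter block (0.47), and stood at 0.031 with E1A scaling. The cause of these shifts was not tested.

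With the replicate number as a block 44 members were called lower, 42 by at least 2-fold, and GATA2 stood at 0.68 (adjusted p = 0.082 in limma). Deviations of the arrays with the same number had correlations of 0.523, -0.296, 0.161 and 0.179, which differ in sign and size. These values do not settle whether arrays with the same number belong together. The title letters B and F each occur in both groups, under different replicate numbers. A pairing by these shared letters was not tested. Slide as a block was not run, since all arrays lay on 1 slide.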
